A study of Homo sapiens with 6 samples.

Results

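The 44 genes described here carry a human cell through mitosis: the kinase and cyclins that start it, the spindle checkpoint that holds it, the enzymes that end it and the structural proteins that move the chromosomes. They were taken as a list of gene symbols, current or older, and each was read from the probe sets that the array annotation assigns to that gene alone. All 44 had such a probe set, out of 19752 named genes on the array and 14820 genes that passed a filter on low signal, and 87 probe sets belonged to them. Their RNA was measured in CL1-0 and CL1-5, a pair of human lung adenocarcinoma lines that both derive from the line CL1. The labels call CL1-0 poorly invasive and CL1-5 highly invasive. Neither line carried a genetic change or drug named in the labels, and both were grown in RPMI with 10% fetal bovine serum and antibiotics at 37 °C in 5% CO2. Total RNA of 3 biological repeats of each line, 6 µg per labelling, was hybridised to 6 one-colour Affymetrix arrays. With 1 line for each degree of invasiveness, what belongs to invasion and what belongs to these 2 lines cannot be told apart.

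Cells enter mitosis when CDK1, bound to cyclin A or cyclin B, is freed of inhibitory phosphates by the CDC25 phosphatases. Polo and Aurora kinases then mature the centrosomes and build the spindle, and kinetochores on each centromere catch its microtubules. Until every kinetochore is attached, the spindle checkpoint proteins MAD2, BUB1, BUBR1 and BUB3 withhold CDC20 from the anaphase-promoting complex, a ubiquitin ligase. Once released, that complex has securin and cyclin B destroyed, separase cuts the cohesin rings, the sister chromatids part and the central spindle directs the cell to divide. Most of these genes are transcribed late in the cell cycle, through CCAAT boxes bound by NF-Y and through a downstream element, the CHR, bound by the DREAM and MuvB complexes. In a growing culture their RNA level reflects both how many cells are in the late cell cycle and how much RNA each such cell holds, and in bulk RNA fewer such cells and less RNA per cell cannot be told apart.

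Since shared promoter elements are a known feature of these genes, the upstream sequences of 6 members are shown, 2 that were lower in CL1-5, 2 that were higher and 2 that did not pass the test. Each run is the 250 bases before the RefSeq transcription start on GRCh38.p14, written 5′ to 3′ on the gene's own strand, with capitals marking CHR letters (TTTGAA or TTCGAA, or the reverse complement TTCAAA) and CCAAT or its reverse complement ATTGG. ASPM (chr1:197146670-197146919, minus strand) and HMMR (chr5:163460382-163460631, plus strand) were lower in CL1-5. MAD2L1 (chr4:120066849-120067098, minus strand) and CDCA8 (chr1:37692266-37692515, plus strand) were higher. CCNB2 (chr15:59104896-59105145, plus strand) and MKI67 (chr10:128126424-128126673, minus strand) did not pass.
ASPM: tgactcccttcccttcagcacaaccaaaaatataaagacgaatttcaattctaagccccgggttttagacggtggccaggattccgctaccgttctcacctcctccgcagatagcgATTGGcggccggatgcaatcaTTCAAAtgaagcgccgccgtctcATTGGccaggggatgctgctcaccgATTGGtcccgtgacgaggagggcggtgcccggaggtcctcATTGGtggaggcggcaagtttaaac
HMMR: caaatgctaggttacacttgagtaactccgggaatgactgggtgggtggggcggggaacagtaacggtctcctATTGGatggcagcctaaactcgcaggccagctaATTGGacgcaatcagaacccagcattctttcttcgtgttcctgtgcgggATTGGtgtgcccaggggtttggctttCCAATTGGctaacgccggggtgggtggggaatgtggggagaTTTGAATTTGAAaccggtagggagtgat
MAD2L1: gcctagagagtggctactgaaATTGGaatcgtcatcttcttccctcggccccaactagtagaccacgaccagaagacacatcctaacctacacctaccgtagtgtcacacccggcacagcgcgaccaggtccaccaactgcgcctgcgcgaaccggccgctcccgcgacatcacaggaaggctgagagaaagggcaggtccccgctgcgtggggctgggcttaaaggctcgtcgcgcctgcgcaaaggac
CDCA8: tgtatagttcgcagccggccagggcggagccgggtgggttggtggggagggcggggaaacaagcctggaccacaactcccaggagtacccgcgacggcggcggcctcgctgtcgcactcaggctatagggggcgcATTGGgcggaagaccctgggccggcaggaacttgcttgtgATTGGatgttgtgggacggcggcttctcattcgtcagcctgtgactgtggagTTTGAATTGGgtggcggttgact
CCNB2: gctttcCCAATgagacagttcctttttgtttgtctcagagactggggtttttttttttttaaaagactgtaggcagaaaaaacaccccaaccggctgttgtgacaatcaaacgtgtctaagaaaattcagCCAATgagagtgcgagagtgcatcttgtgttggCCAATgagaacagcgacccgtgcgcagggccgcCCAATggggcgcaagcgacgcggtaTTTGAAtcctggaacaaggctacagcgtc
MKI67: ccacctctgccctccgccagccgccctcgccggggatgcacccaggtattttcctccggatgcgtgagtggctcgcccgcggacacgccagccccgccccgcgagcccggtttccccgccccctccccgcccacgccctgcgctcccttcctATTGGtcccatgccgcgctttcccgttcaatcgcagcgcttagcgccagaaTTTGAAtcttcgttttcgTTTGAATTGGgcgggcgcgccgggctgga
All 6 runs held CCAAT letters, and 5 held CHR letters before the start. In MAD2L1 the CHR letters lay 25 bases past the start, outside the run shown. In HMMR a CCAAT and an ATTGG overlap, and in CDCA8 and MKI67 a TTTGAA shares a base with an ATTGG.

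RefSeq promoter windows, from 250 bases before to 50 bases after a start, were found for 35 of the 44 members, in 45 windows of which some belong to the same gene. CHR letters on either strand stood in 29 of the 45 windows (64.4%), against 16.4% of all 35116 windows. CCAAT on either strand stood in 34 windows (75.6%), against 34.6% of all windows. Both stood together in 24 windows (53.3%), against 6.38% of all windows. Counted per gene, with a match in any of its windows, CHR letters were found in 5 of the 6 matched members that were higher in CL1-5. They were found in 10 of 13 that were lower and in 11 of 16 that did not pass, and a CCAAT match in 6 of 6, 11 of 13 and 12 of 16. These gene counts are not comparable with the shares of windows above, and no share per gene over all genes was computed. A match describes the letters in the window and is no evidence of binding. AURKA, BIRC5, BUB3, CENPM, PBK, RACGAP1, TPX2, TTK and UBE2C had no window in the table used.

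Values are the deposited probe set signals, on a linear scale of arbitrary units, and each gene is represented by its brightest probe set, passing over where possible those with suffix x, whose probes may also bind other transcripts. Differences are CL1-5 minus CL1-0 on the scale log2(signal + 6.851), called log2 fold changes, and were tested with limma over all 14820 genes with Benjamini-Hochberg adjustment. That test did not pair arrays by repeat number. A gene is said to rise, fall or change where its adjusted p is under 0.05, and every adjusted p below is from that test unless another fit or setting is named. The arrays were closely scaled, with median signals between 30.2 and 30.9, and no 2 of the 6 held identical values. Spiked-in control RNA was far brighter in repeat 3 of both lines, where the Dap 3′ probe set read 5079 to 8993 against 220.03 to 282 in repeats 1 and 2. Repeat 3 is therefore regarded as a batch that holds both lines. The main test has no term for this batch, which enters only a block fit given among the alternatives. Of 9 lung epithelial markers, 8 in CL1-0 and 7 in CL1-5 exceeded the 40th percentile of their array on all 3 arrays. KRT19 was under it in both lines and EPCAM in CL1-5, whereas KRT18 read 46.5 ± 7.85 in CL1-0 and 4222 ± 417 in CL1-5 and KRT8 49.4 ± 0.98 and 555 ± 7.18 (SD, n = 3), both by suffix x probe sets. The lung factor NKX2-1 read 26.9 ± 3.30 and 25.0 ± 0.502 (SD, n = 3), not far above that percentile at 19.5 to 20.3. Of 9 markers of blood, endothelial and stromal cells, 5 were at or under it on all arrays by their brightest probe set without suffix x. These were PTPRC, CD14, CDH5, DCN and LUM, though a suffix x probe set of DCN exceeded it on all 6. VWF exceeded it on 2 arrays of each line and PDGFRB on 1. CD3E exceeded it on all 6, at 24.6 ± 2.51 in CL1-0 and 23.7 ± 4.30 in CL1-5 (SD, n = 3), close to NKX2-1. PECAM1 read 49.8 ± 6.13 and 115.1 ± 4.24 in CL1-0 and CL1-5. Exceeding this percentile is thus weak evidence that a marker was expressed.

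The mitosis genes were not lowered or raised as a block. All 44 were above the 40th percentile on every array, so none passed the filter in only 1 line. In CL1-5, 7 of the 44 rose (15.9%), where 23.3% of all genes tested rose, and 18 fell (40.9%), where 28.4% of all genes fell. The other 19 did not pass. The counts by role given below are to be read beside these shares of all genes. Their median log2 fold change was -0.077, beside -0.03 over all genes, and their median absolute change was 0.27, beside 0.32. A called change of at least 2-fold was found in 2 members, UBE2C and ASPM (4.55%), against 16.3% of all genes. The signal ranges of the lines did not overlap for 27 members (61.4%), against 59.0% of all genes. The ranges did not overlap for any of the 25 called members. Each therefore had the same sign in every pair of arrays, which adds no further support. A fit that also took the repeat number as a block, since same-numbered arrays deviated together, gave 10 higher and 20 lower, where 28.1% of all genes rose and 34.8% fell. Without CL1-0 repeat 2, or without CL1-5 repeat 2, 4 members rose in place of 7, while over all genes 3064 and 2963 rose in place of 3458. Without CL1-0 repeat 3 the median log2 fold change was -0.14. Leaving out single arrays took the call from 8 of the 25, and the other 17 kept it without any 1 array. With the probe sets of each gene averaged, 7 members rose and 13 fell, where 23.4% of all genes rose and 28.6% fell.

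**Figure D1:**
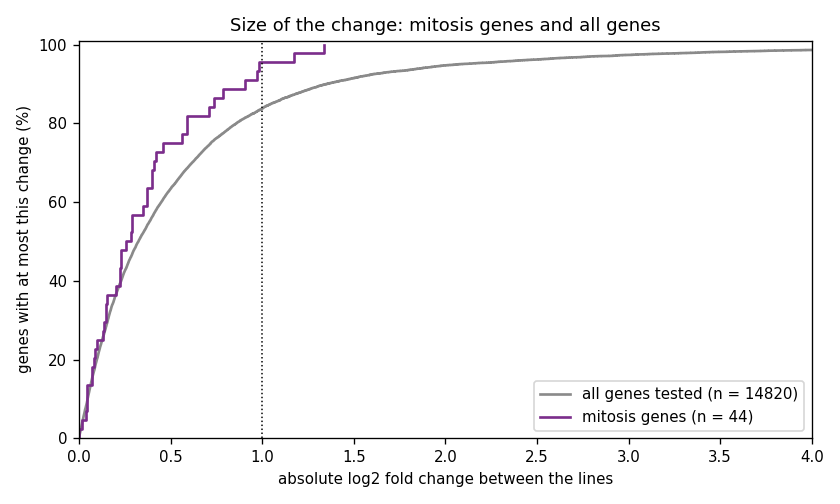
Cumulative share of genes (%, vertical axis) by the absolute log2 fold change between the lines (horizontal axis, shown up to 4), for the 44 mitosis genes and all 14820 genes tested; the dotted line marks a 2-fold change. The curve of the mitosis genes reaches its end at 1.34, while 16.3% of all genes are called beyond the dotted line.

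**Figure D2:**
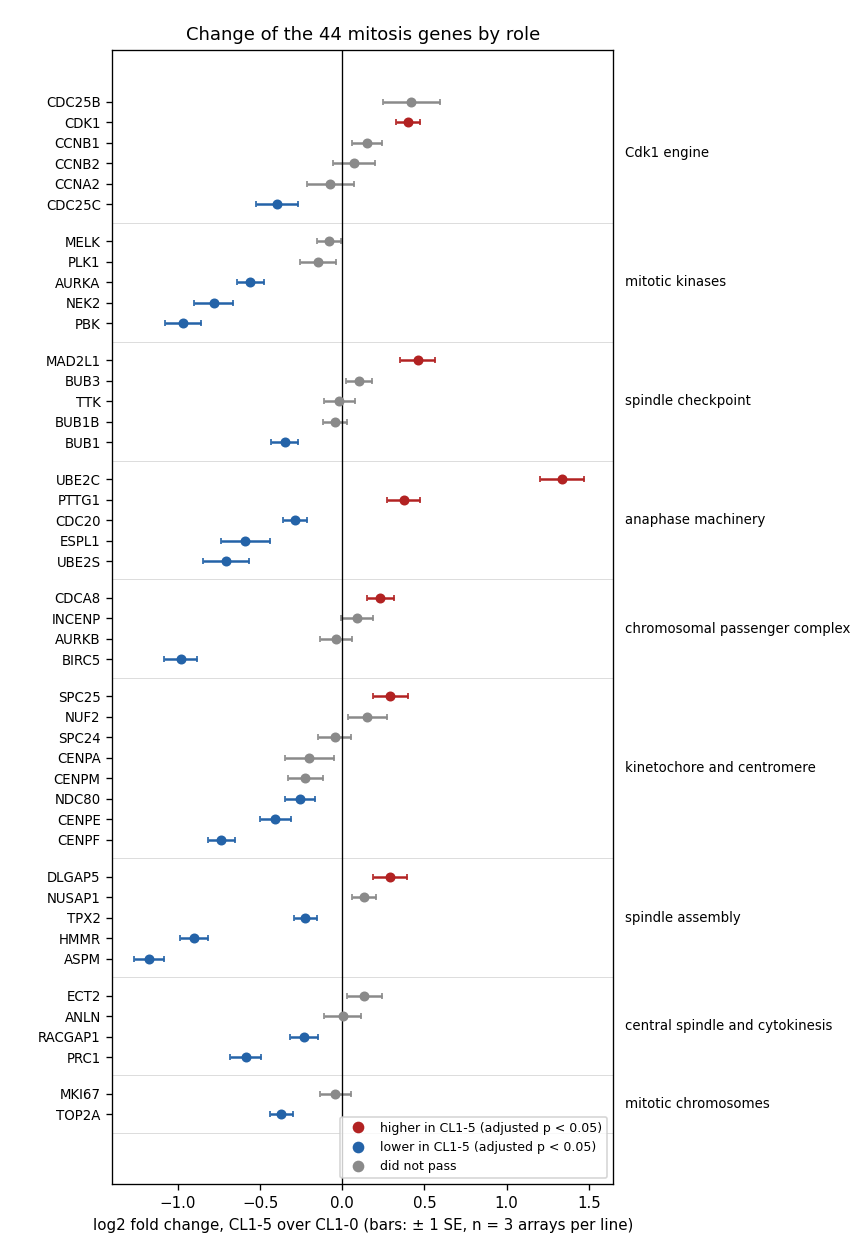
Log2 fold change of CL1-5 over CL1-0 (horizontal axis, bars of 1 SE, 3 arrays per line) for each of the 44 genes, grouped by role; red and blue points passed at adjusted p under 0.05 and grey points did not. In 6 of the 9 roles some genes are red and others blue, with UBE2C at 1.34 and ASPM at -1.18 as the ends of the range.

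Among the 6 genes of the CDK1 engine, 1 rose, 1 fell and 4 did not pass. CDK1, the kinase that drives mitotic entry, read 815, 757 and 816 in CL1-0 repeats 1 to 3 and 1040.3, 1083 and 1031 in CL1-5. Every CL1-5 array was above every CL1-0 array, and the means were 796 ± 33.6 in CL1-0 and 1052 ± 27.5 in CL1-5 (SD, n = 3), a log2 fold change of 0.40 (SE 0.074, adjusted p = 0.00175). In a separate fit over probe sets, another CDK1 probe set (0.48, SE 0.21, adjusted p = 0.102) overlapped between the lines and did not pass. The same held for one with suffix x (0.40, SE 0.22, adjusted p = 0.182), while a dim one rose (0.46, SE 0.089, adjusted p = 0.00354). CDC25C, a phosphatase that activates CDK1, fell, reading 549.9, 478 and 401 in CL1-0 repeats 1 to 3 and 396, 348 and 329.6 in CL1-5, a log2 fold change of -0.40 (SE 0.13, adjusted p = 0.0285). Its lowest CL1-0 array, repeat 3, lay just above its highest CL1-5 array, and the call was lost without CL1-0 repeat 1 or 2 or CL1-5 repeat 2 or 3 (adjusted p = 0.0763 to 0.0979). For CDC25B, the phosphatase that acts earliest at the centrosome, the signals were 490.0, 578 and 706 in CL1-0 repeats 1 to 3 and 646, 762 and 982 in CL1-5. Repeat 3 was the brightest in both lines and the ranges overlapped, so that its log2 fold change of 0.42 (95% interval 0.025 to 0.82) did not pass (adjusted p = 0.0726). CDC25B was higher in CL1-5 in each same-numbered pair, and under the repeat block it rose (adjusted p = 2.44e-05). It also rose without CL1-0 repeat 3 or without CL1-5 repeat 1 (adjusted p = 0.022 to 0.0282).

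None of the 3 cyclins that partner CDK1 passed the test. Cyclin B1 (CCNB1) averaged 1435 ± 127 in CL1-0 and 1591 ± 108 in CL1-5 (SD, n = 3), a log2 fold change of 0.15 (95% interval -0.057 to 0.36, adjusted p = 0.206), and passed as higher under the repeat block (adjusted p = 0.0169). Cyclin B2 (CCNB2) averaged 587 ± 91.6 in CL1-0 and 614 ± 53.3 in CL1-5 (SD, n = 3), and its interval ran from -0.22 to 0.36 on the log2 scale. Cyclin A2 (CCNA2), which acts from S phase to early mitosis, averaged 366 ± 65.1 in CL1-0 and 345 ± 38.2 in CL1-5 (SD, n = 3), with an interval of -0.40 to 0.25. Cyclin A2 and cyclin B2 also did not pass with the block.

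Of the 5 other mitotic kinases, 3 fell and none rose. PBK, a serine/threonine kinase active in mitotic cells, read 1155, 1013 and 905 in CL1-0 repeats 1 to 3 and 561, 519.9 and 473 in CL1-5. The lines did not overlap, with means of 1024 ± 126 in CL1-0 and 518 ± 44 in CL1-5 (SD, n = 3) and a log2 fold change of -0.97 (SE 0.11, adjusted p = 8.77e-05). NEK2, which splits the centrosome pair before the spindle forms, read 637, 627 and 787 in CL1-0 repeats 1 to 3 and 351, 392 and 438 in CL1-5, a log2 fold change of -0.78 (SE 0.12, adjusted p = 0.000563). AURKA, the Aurora kinase of the spindle poles, read 1095, 1003 and 958 in CL1-0 repeats 1 to 3 and 721, 665 and 677 in CL1-5, a log2 fold change of -0.56 (SE 0.083, adjusted p = 0.00045). In both genes all CL1-5 arrays lay below all CL1-0 arrays. When all probe sets of a gene were averaged, AURKA no longer passed (adjusted p = 0.0583). In the fit over probe sets, a second AURKA probe set fell by 0.43 (SE 0.077, adjusted p = 0.00225), and a dim one did not pass (0.21, SE 0.18, adjusted p = 0.3885). PLK1, the polo kinase that acts from mitotic entry to cytokinesis, averaged 316 ± 36.9 in CL1-0 and 284 ± 21.2 in CL1-5 (SD, n = 3), a log2 fold change of -0.15 with a 95% interval of -0.40 to 0.10, and MELK, a maternal embryonic leucine zipper kinase, averaged 1416 ± 60.5 in CL1-0 and 1337 ± 52.0 in CL1-5 (SD, n = 3), a log2 fold change of -0.082 with a 95% interval of -0.25 to 0.084. Neither passed.

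**Figure D3:**
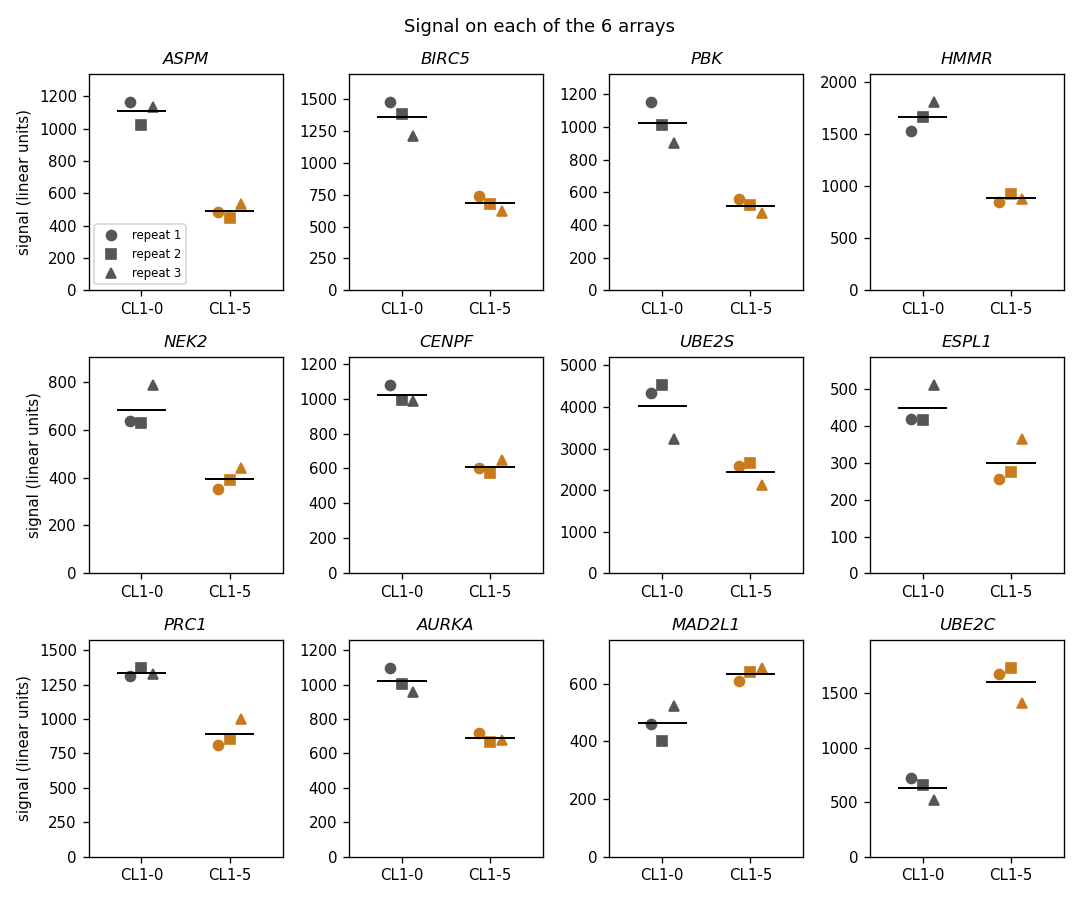
Signal in linear units (vertical axes from 0, scaled per gene) on each of the 6 arrays for the 11 members that changed by at least 0.5 on the log2 scale and for MAD2L1; circles, squares and triangles are repeats 1, 2 and 3, and bars are means of 3 arrays. The arrays of the lines do not overlap in any of the 12 panels, and CL1-5 is the higher line for UBE2C and MAD2L1 and the lower one for the other 10.

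The 5 spindle checkpoint genes split, with 1 higher, 1 lower and 3 that did not pass. MAD2L1 encodes MAD2, the protein that holds CDC20 in check, and read 461, 402 and 523 in CL1-0 repeats 1 to 3 and 608, 642 and 653 in CL1-5. All CL1-5 arrays exceeded all CL1-0 arrays, a log2 fold change of 0.46 (SE 0.11, adjusted p = 0.00586). A second MAD2L1 probe set overlapped between the lines and did not pass in a separate fit over probe sets (0.34, SE 0.26, adjusted p = 0.342). BUB1, the kinase that recruits checkpoint proteins to kinetochores, went the other way, reading 395, 394 and 412 in CL1-0 repeats 1 to 3 and 297, 316 and 324 in CL1-5, a log2 fold change of -0.35 (SE 0.083, adjusted p = 0.00637). Its fall did not pass when all BUB1 probe sets were averaged (adjusted p = 0.116). BUB1B, which encodes the CDC20 inhibitor BUBR1, averaged 721 ± 16.8 in CL1-0 and 698 ± 26.8 in CL1-5 (SD, n = 3), with a 95% interval of the log2 fold change from -0.22 to 0.13. TTK, the kinase MPS1 at the head of the checkpoint, averaged 351 ± 22.4 in CL1-0 and 347 ± 24.4 in CL1-5 (SD, n = 3), with an interval from -0.23 to 0.20.

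BUB3, the protein that docks BUB1 and BUBR1 on kinetochores, was the only member whose probe sets passed in opposite directions. Probe sets were compared in a separate fit over 28152 of them, in which 21.2% rose and 25.6% fell. Its representative probe set read 2135, 1845 and 2172 in CL1-0 repeats 1 to 3 and 2181, 2185 and 2217 in CL1-5, a log2 fold change of 0.10 in that fit (95% interval -0.086 to 0.29, adjusted p = 0.351). That probe set had the CL1-5 arrays just above the CL1-0 arrays and did not pass. Another, with suffix x, read 2282, 1948 and 1614 in CL1-0 repeats 1 to 3 and 3177, 2727 and 2515 in CL1-5 and rose by 0.53 (SE 0.14, adjusted p = 0.0149). The next read 1461, 1359 and 1767 in CL1-0 repeats 1 to 3 and 939.8, 1078 and 985 in CL1-5 and fell by 0.60 (SE 0.11, adjusted p = 0.00295), and one more read 891, 846 and 767 in CL1-0 repeats 1 to 3 and 644, 652 and 569 in CL1-5 and fell by 0.42 (SE 0.095, adjusted p = 0.00755). Both of these had all CL1-5 arrays below all CL1-0 arrays. A dim one did not pass (-0.26, adjusted p = 0.193). No direction is therefore given for BUB3 RNA.

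Every one of the 5 genes of the anaphase machinery changed, 2 upward and 3 downward, where 23.3% of all genes rose and 28.4% fell. UBE2C, the ubiquitin-conjugating enzyme that starts chains on substrates of the anaphase-promoting complex, read 724, 656 and 516 in CL1-0 repeats 1 to 3 and 1671, 1727 and 1404 in CL1-5. It was the member with the largest change: all CL1-5 arrays were above all CL1-0 arrays, and the means of 632 ± 106 in CL1-0 and 1601 ± 173 in CL1-5 (SD, n = 3) gave a log2 fold change of 1.34 (SE 0.14, adjusted p = 4.13e-05), a 2.53-fold rise. UBE2S, the partner enzyme that lengthens those chains, read 4331, 4526 and 3221 in CL1-0 repeats 1 to 3 and 2579, 2641 and 2117 in CL1-5. There was no overlap between the lines, and the log2 fold change was -0.71 (SE 0.14, adjusted p = 0.00237). The 2 conjugating enzymes of one ligase thus moved apart, and the log2 ratio of UBE2C to UBE2S signal was 2.05 higher in CL1-5 than in CL1-0. The pair was chosen after its values were seen, and that difference is a description with no test.

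Separase, the protease encoded by ESPL1 that opens cohesin, read 419.7, 417 and 512 in CL1-0 repeats 1 to 3 and 255, 275 and 365 in CL1-5. It fell by 0.59 (SE 0.15, adjusted p = 0.00848), with repeat 3 the brightest in both lines and all CL1-5 arrays below all CL1-0 arrays. PTTG1, which encodes the separase inhibitor securin, read 2606, 2448 and 2031 in CL1-0 repeats 1 to 3 and 3246, 3074 and 2823 in CL1-5, a log2 fold change of 0.37 (SE 0.10, adjusted p = 0.0142). PTTG1 was read only from a suffix x probe set and has near-identical relatives in the genome, so its rise is uncertain. It no longer passed without CL1-5 repeat 1 (adjusted p = 0.0525). CDC20, the activator that the checkpoint restrains, read 1754, 1662 and 1596 in CL1-0 repeats 1 to 3 and 1421, 1329 and 1353 in CL1-5. All 3 CL1-5 arrays lay below the CL1-0 arrays, a log2 fold change of -0.29 (SE 0.072, adjusted p = 0.0091).

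The chromosomal passenger complex holds Aurora B at centromeres and later at the midzone, and its 4 genes did not move together. BIRC5, which encodes survivin, the subunit that anchors the complex to centromeric chromatin and also belongs to the IAP family, read 1481, 1382 and 1216 in CL1-0 repeats 1 to 3 and 743, 679.8 and 626 in CL1-5. The lines did not overlap, and means of 1359 ± 134 in CL1-0 and 683 ± 58.6 in CL1-5 (SD, n = 3) gave a log2 fold change of -0.98 (SE 0.10, adjusted p = 4.58e-05). CDCA8, which encodes borealin, survivin's partner in that anchor, read 516, 513 and 522 in CL1-0 repeats 1 to 3 and 565, 618 and 643 in CL1-5. It rose by 0.23 (SE 0.082, adjusted p = 0.0429), a small change that was lost without CL1-0 repeat 1, 2 or 3 or CL1-5 repeat 2 or 3 (adjusted p = 0.0574 to 0.137). The kinase gene AURKB averaged 667 ± 66.4 in CL1-0 and 647 ± 40.4 in CL1-5 (SD, n = 3), a log2 fold change of -0.039 with a 95% interval of -0.26 to 0.18, and the scaffold gene INCENP 67.1 ± 5.13 in CL1-0 and 71.9 ± 3.79 in CL1-5 (SD, n = 3), a log2 fold change of 0.090 with a 95% interval of -0.14 to 0.32. Both intervals lie well above the change of BIRC5.

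Of the 8 kinetochore and centromere genes, 3 fell, 1 rose and 4 did not pass. CENPF, a large protein of the outer kinetochore and nuclear matrix, read 1077, 992 and 988 in CL1-0 repeats 1 to 3 and 603, 576 and 647 in CL1-5. Every CL1-5 array was below every CL1-0 array, and its log2 fold change was -0.74 (SE 0.082, adjusted p = 7.8e-05). CENPE, the kinesin motor that brings late chromosomes to the metaphase plate, read 358, 344 and 329 in CL1-0 repeats 1 to 3 and 267, 234 and 271 in CL1-5, a log2 fold change of -0.41 (SE 0.094, adjusted p = 0.00583) with the lines again apart. CENPA, the histone variant that marks centromeres, was read from a suffix x probe set and averaged 347 ± 47.6 in CL1-0 and 302 ± 50.1 in CL1-5 (SD, n = 3). Its log2 fold change of -0.20 (95% interval -0.54 to 0.14) did not pass (adjusted p = 0.299). CENPM, a member of the inner kinetochore network, averaged 475 ± 59.5 in CL1-0 and 404 ± 20.7 in CL1-5 (SD, n = 3), a log2 fold change of -0.22 with a 95% interval of -0.47 to 0.022 and adjusted p = 0.117. Both passed as lower under the repeat block (adjusted p = 0.0231 for CENPA and 0.015 for CENPM), and CENPM also without CL1-0 repeat 3 (adjusted p = 0.0199).

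The NDC80 complex is the kinetochore's grip on microtubules, built of NDC80, NUF2, SPC24 and SPC25. NDC80 read 389, 355 and 331 in CL1-0 repeats 1 to 3 and 296, 302 and 295 in CL1-5 and fell by 0.26 (SE 0.091, adjusted p = 0.0403). SPC25 read 191, 155 and 179.9 in CL1-0 repeats 1 to 3 and 211, 206 and 230.1 in CL1-5 and rose by 0.29 (SE 0.11, adjusted p = 0.0481). Neither gene overlapped between the lines, but both calls sat near the threshold. The NDC80 call was lost without CL1-0 repeat 1 or 2 or CL1-5 repeat 1, 2 or 3 (adjusted p = 0.0822 to 0.127), and the SPC25 call without CL1-0 repeat 2 or 3 or CL1-5 repeat 1, 2 or 3 (adjusted p = 0.0617 to 0.173). NUF2 averaged 341 ± 53.8 in CL1-0 and 377 ± 22.2 in CL1-5 (SD, n = 3), a log2 fold change of 0.15 with a 95% interval of -0.12 to 0.43, with 0.27 in repeats 1 and 2 and -0.074 in repeat 3, and it passed without CL1-0 repeat 3 (adjusted p = 0.0415). SPC24 averaged 138 ± 11.5 in CL1-0 and 134 ± 6.26 in CL1-5 (SD, n = 3), a log2 fold change of -0.046 with a 95% interval of -0.28 to 0.18.

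All 5 spindle assembly genes had signal ranges that did not overlap, as had 59.0% of all genes. Of the 5, 3 were lower, 1 was higher and 1 did not pass. ASPM, the spindle pole protein known for its role in brain size, read 1167, 1026 and 1137 in CL1-0 repeats 1 to 3 and 482, 449 and 533 in CL1-5. Its means of 1110.0 ± 74.3 in CL1-0 and 488 ± 42.3 in CL1-5 (SD, n = 3) gave a log2 fold change of -1.18 (SE 0.094, adjusted p = 9.39e-06), 2.26-fold lower in CL1-5. HMMR, the hyaluronan-mediated motility receptor, which also binds spindle microtubules, read 1528, 1663 and 1811 in CL1-0 repeats 1 to 3 and 852, 926 and 881 in CL1-5, a log2 fold change of -0.90 (SE 0.085, adjusted p = 2.68e-05). In both genes even the highest CL1-5 array was well below the lowest CL1-0 array.

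TPX2, the microtubule nucleator that activates Aurora A, read 1919.5, 1882 and 1711 in CL1-0 repeats 1 to 3 and 1554, 1577 and 1577 in CL1-5, a log2 fold change of -0.22 (SE 0.072, adjusted p = 0.0284) that was lost without CL1-0 repeat 1 or 2 or CL1-5 repeat 1, 2 or 3 (adjusted p = 0.0561 to 0.103). DLGAP5, also called HURP, which stabilises kinetochore fibres, read 416, 370.5 and 339 in CL1-0 repeats 1 to 3 and 491, 465 and 423 in CL1-5. It rose by 0.29 (SE 0.10, adjusted p = 0.0443), and this call was lost without CL1-0 repeat 2 or 3 or CL1-5 repeat 1 or 2 (adjusted p = 0.11 to 0.14). NUSAP1, a microtubule bundler, read 969, 948 and 979.5 in CL1-0 repeats 1 to 3 and 1032, 1025 and 1118 in CL1-5. All 3 CL1-5 arrays exceeded the CL1-0 arrays, yet the log2 fold change of 0.13 (95% interval -0.037 to 0.30) did not pass (adjusted p = 0.176), while under the repeat block it did (adjusted p = 0.0483).

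Of the 4 genes of the central spindle and cytokinesis, 2 fell and none rose. PRC1, which bundles the antiparallel microtubules of the midzone, read 1316, 1370.3 and 1330.1 in CL1-0 repeats 1 to 3 and 813, 857 and 1004 in CL1-5. The lines did not overlap, with a log2 fold change of -0.59 (SE 0.092, adjusted p = 0.000648). RACGAP1, a centralspindlin subunit, read 1099.9, 1016 and 1087 in CL1-0 repeats 1 to 3 and 894, 989 and 847 in CL1-5, a log2 fold change of -0.23 (SE 0.085, adjusted p = 0.0478). Its nearest arrays were close together, and the call was lost without CL1-0 repeat 1, 2 or 3 or CL1-5 repeat 1 or 3 (adjusted p = 0.0694 to 0.141). ECT2, which centralspindlin recruits to the midzone, averaged 604 ± 75.4 in CL1-0 and 662 ± 43.4 in CL1-5 (SD, n = 3), a log2 fold change of 0.13 with a 95% interval of -0.11 to 0.38. ANLN, the contractile ring scaffold anillin, averaged 567 ± 78.8 in CL1-0 and 565 ± 39.9 in CL1-5 (SD, n = 3), a log2 fold change of 0.0021 with a 95% interval of -0.26 to 0.26.

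The pair of genes whose proteins shape mitotic chromosomes differed in outcome. TOP2A, the topoisomerase that untangles sister DNA, read 2094, 2136 and 2246 in CL1-0 repeats 1 to 3 and 1645, 1603 and 1754 in CL1-5. It fell by 0.37 (SE 0.071, adjusted p = 0.002) without overlap between the lines, but did not pass when its probe sets were averaged (adjusted p = 0.331). Its second probe set had repeats far apart, reading 1693, 1175 and 2581 in CL1-0 repeats 1 to 3 and 1617, 1039 and 2429 in CL1-5. MKI67, which encodes the proliferation antigen Ki-67 that coats mitotic chromosomes, averaged 347 ± 26.0 in CL1-0 and 336 ± 18.0 in CL1-5 (SD, n = 3), a log2 fold change of -0.042 (95% interval -0.25 to 0.17). Ki-67, the usual label of cycling cells, thus did not pass by this probe set (adjusted p = 0.744).

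How far a member's change held on its other probe sets varied. Of the 87 member probe sets, 80 passed the filter, and 22 members had several that passed. In the fit over probe sets, 4 members rose and 16 fell by their representative probe set. The called members had 21 further probe sets, of which 17 had the same sign, 8 also passed in the same direction and none passed in the opposite one. BUB3 was not called and is not among them. A second BIRC5 probe set had a larger change than the representative, -1.43 (SE 0.092, adjusted p = 9.75e-06), while a dim one had 0.18 (adjusted p = 0.564). The 2 further ASPM probe sets, with mean CL1-0 signals of 54.2 and 48.5, gave 0.044 and 0.018 and did not pass, so that the mean over ASPM probe sets was -0.37 (adjusted p = 0.0539). For MKI67 a dimmer probe set fell by 0.56 (SE 0.13, adjusted p = 0.00959), whereas the other 3 did not pass. CDC25C also no longer passed when its probe sets were averaged (adjusted p = 0.0565). What each probe set of these genes detects was not tested.

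The calls nearest the threshold also moved with other settings. CDCA8, SPC25 and RACGAP1 did not pass when each array was centred on its median, at adjusted p of 0.0514, 0.0566 and 0.0529. Without a filter on low signal these 3 and DLGAP5 did not pass (adjusted p = 0.0518 to 0.0605). With no trend in the prior variance CDCA8, TPX2 and RACGAP1 did not pass (adjusted p = 0.0509 to 0.0659). With array weights RACGAP1 moved to -0.081 (adjusted p = 0.212). In repeats 1 and 2 alone CDCA8, SPC25 and RACGAP1 did not pass (adjusted p = 0.0703 to 0.104).

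**Figure D4:**
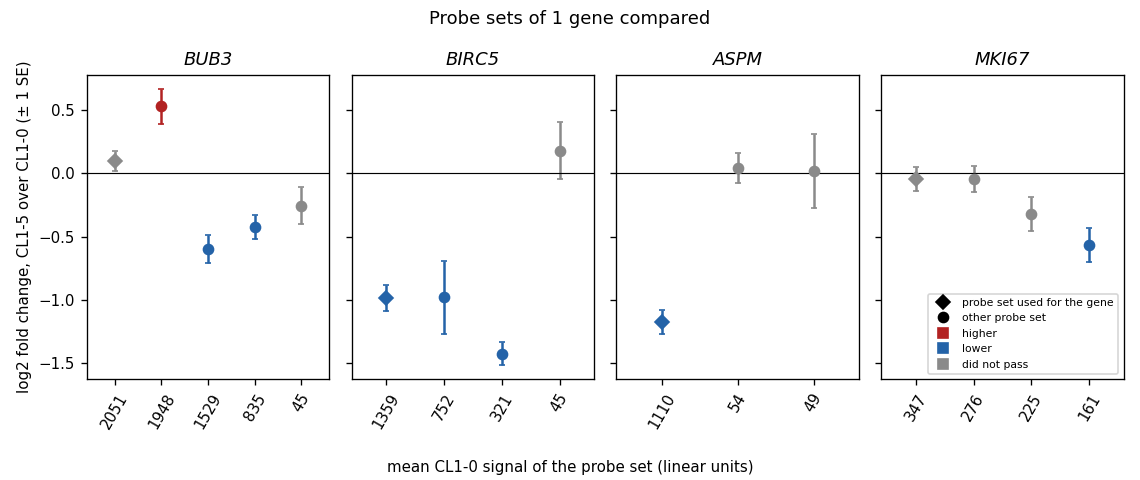
Log2 fold change of CL1-5 over CL1-0 (vertical axis, bars of 1 SE) for every probe set above the filter of BUB3, BIRC5, ASPM and MKI67, ordered by mean CL1-0 signal (horizontal axis, linear units, not to scale); diamonds mark the probe set that represents the gene, red and blue passed at adjusted p under 0.05. BUB3 has 1 red and 2 blue points, and the dim ASPM probe sets lie near 0 while the bright one is at -1.18.

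Beyond the 44 genes, 9 lists of genes that work with them were counted in the same fit, beside which 23.3% of all genes rose and 28.4% fell. The kinases and phosphatases of the mitotic entry switch split, with 4 of 14 higher and 5 lower. WEE1, the kinase that places the inhibitory phosphate on CDK1, averaged 897 ± 117 in CL1-0 and 239 ± 44.7 in CL1-5 (SD, n = 3), a log2 fold change of -1.88 (SE 0.15, adjusted p = 7.45e-06). CDC25A, the phosphatase that removes it at the start of S phase and mitosis, fell by 1.30 (SE 0.12). CKS2, a small CDK1 subunit, fell by 0.54 (SE 0.074), and MASTL, the kinase that shields CDK1 targets from phosphatase, rose by 0.51 (SE 0.089).

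Of 15 tested subunits and regulators of the anaphase-promoting complex, 1 rose and 7 fell, with ANAPC4 at -0.85, ANAPC15 at -0.50, ANAPC10 at -0.44 and CDC27 at -0.38. The CDC27 value had the opposite sign when its probe sets were averaged (0.19). Of 21 condensin and cohesin genes, which fold chromosomes and hold sisters together, 2 rose and 10 fell. STAG2, a cohesin subunit, fell by 1.79 (SE 0.091, adjusted p = 5.01e-07), followed by the cohesin regulator PDS5A at -0.92, the cohesin loader NIPBL at -0.85 and the condensin ATPase SMC4 at -0.61. SMC4 did not pass when probe sets were averaged. Of 12 mitotic kinesins, 2 rose and 6 fell. KIF14, a midbody motor, had a log2 fold change of -0.68 and KIF20B one of -0.49, while the microtubule depolymerase KIF2C rose by 0.56 and KIF18B by 0.53.

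Among 31 centrosome and spindle pole genes 4 rose and 15 fell. CKAP2L, a spindle protein, rose by 1.59 (SE 0.26), while HAUS1 and HAUS3, subunits of the augmin complex that branches microtubules, were at -1.01 and -0.98, and the microtubule polymerase CKAP5 at -0.88. Of 27 other kinetochore and centromere genes 4 rose and 7 fell, with CENPQ at 1.12, CENPI at -0.94, CENPN at -0.93 and CENPH at -0.81. All 4 belong to the inner kinetochore network, and CENPN did not pass when probe sets were averaged. Of 6 other checkpoint genes 2 rose and 1 fell. MAD2L1BP, whose product p31comet removes MAD2 from its targets, was at 0.85, its partner ATPase TRIP13 at 0.24, and the histone kinase HASPIN at -0.40. The TRIP13 call was lost without CL1-0 repeat 2 or CL1-5 repeat 1 or 2 (adjusted p = 0.0671 to 0.0799).

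A list of cell cycle transcription regulators, which holds E2F and RB family genes beside MuvB and NF-Y genes, gave 3 higher and 8 lower of 22. E2F7, a repressor, rose by 1.39 (SE 0.12). LIN54, the MuvB subunit that reads the CHR, was at -0.89, MYBL2, the MuvB partner that activates these promoters, at -0.80, and E2F2 at -0.78. DNA replication genes, which are transcribed earlier in the cycle, divided almost evenly, with 8 of 22 higher and 7 lower. The origin licensing factor CDC6 was at -1.38, cyclin E2 (CCNE2) at 1.11, cyclin E1 (CCNE1) at -1.01 and the helicase factor CDC45 at -1.0. The median log2 fold change was -0.17 for the mitotic entry genes, -0.093 for the anaphase-promoting complex, -0.30 for condensins and cohesins, -0.20 for kinesins and -0.31 for centrosome genes. It was -0.11 for the other kinetochore genes, -0.055 for the other checkpoint genes, -0.13 for the transcription regulators and -0.064 for replication genes, beside -0.033 over all genes. The share of genes called lower was 50% for kinesins, 48.4% for centrosome genes, 47.6% for condensins and cohesins and 46.7% for the anaphase-promoting complex. It was 36.4% for the transcription regulators, 35.7% for the mitotic entry genes, 31.8% for replication genes, 25.9% for the other kinetochore genes and 16.7% for the other checkpoint genes, beside 28.4% of all genes. These lists were not tested against each other.

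Under the repeat block, where 28.1% of all genes rose and 34.8% fell, no gene of these 9 lists lost its call and some gained one. The block gave 6 higher and 11 lower of the other kinetochore genes, 5 and 8 of the mitotic entry genes, 3 and 7 of the anaphase-promoting complex and 7 and 16 of the centrosome genes. It gave 3 higher and 12 lower of condensins and cohesins, 5 and 9 of the transcription regulators, 9 and 8 of replication genes and 2 and 2 of the other checkpoint genes. The kinesin counts stayed at 2 and 6.

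**Figure D5:**
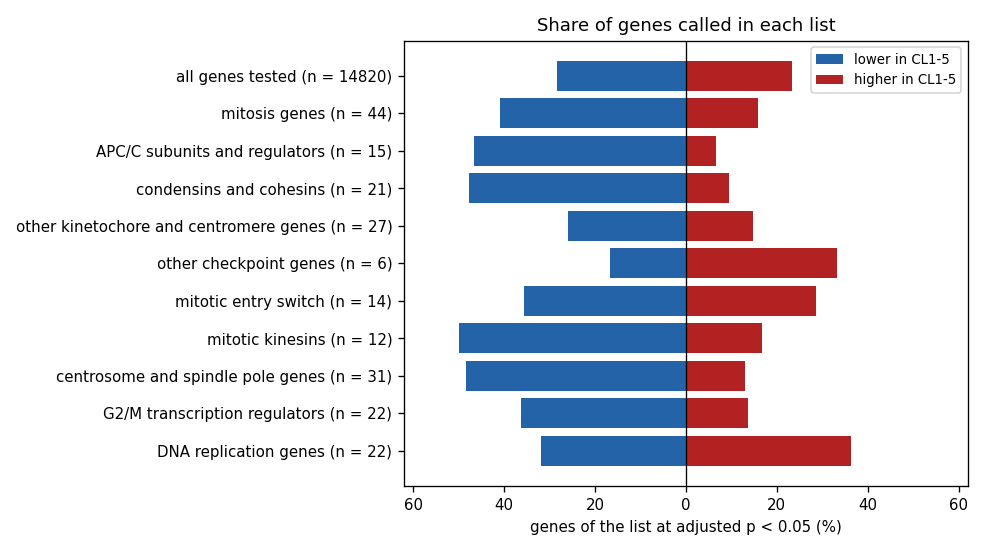
Share of tested genes (%, horizontal axis) called lower (blue, to the left) or higher (red, to the right) in CL1-5 at adjusted p under 0.05, for all genes, the 44 mitosis genes and 9 lists of related genes, with the number tested in brackets. The mitosis genes have 40.9% lower and 15.9% higher, and the replication genes are more evenly divided.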

How the data were processed

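The deposited values are probe set intensity on a linear scale, 1 column per array. MAS5 is named per the submitters' processing notes. Neither its version nor any later scaling is given in the sources used here. Lines and repeat numbers came from the sample titles, and p-values measure only the spread between these repeats, whose number limits the precision (median SE of the members 0.0986 on the log2 scale).

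Of 54675 probe sets, 41091 had 1 gene symbol in the platform annotation, 1801 several, 11721 none and 62 were controls. Symbols were updated through RefSeq gene identifiers (GRCh38.p14), and 1 probe set shared by CENPA and another gene was left out. Values became log2(signal + 6.851), the 10th percentile of all values being the constant, so fold changes of dim genes are understated. Probe sets were kept that exceeded the 40th percentile of an array on 3 or more of the 6. Each gene used its brightest probe set, without suffix x where another passed. Lines were compared with limma 3.58.1 (lmFit, eBayes with trend, R 4.3.3) and Benjamini-Hochberg adjustment over all genes. The code was run on simulated data with independent noise on each array. That simulation held no deviations shared by same-numbered arrays, so it does not check the unpaired test against them. Another fit covered every probe set.

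The deviations of same-numbered arrays from their line's mean were correlated (0.481, 0.293 and 0.656 for repeats 1, 2 and 3). The main test did not pair arrays by number, so its calls, SEs, intervals and adjusted p are unpaired. A fit with the repeat number as a block is given where it changes a member's call, and as counts for the other lists. The actin 3′ to 5′ log2 signal ratio, a sign of RNA quality, was 0.71 ± 0.40 in CL1-0 and 0.54 ± 0.32 in CL1-5 (SD, n = 3).

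Members, gene lists and tests were chosen with earlier results of these data known. Members changing by at least 0.5 (log2), or with probe sets called in opposite directions, are given on all 6 arrays, as are others where the text turns on them. In each list outside the members up to 4 called genes with the largest change are named. The alternatives tried were the constant, filter, scaling, prior variance, array weights, probe set choice, replicate block, repeats taken apart, single arrays left out and stricter thresholds. A block for the spike-in batch and the fit over probe sets were added after seeing the data.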

Additional observations from a re-analysis of the deposited data

How the results depend on the processing

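Against 7 members higher and 18 lower in CL1-5, the replicate block gave 10 and 20, and added CCNB1, CDC25B and NUSAP1 as higher and CENPA and CENPM as lower without losing a call. It changed no other member's call. A block for the spike-in batch gave 9 and 20, where 27.5% of all genes rose and 34.0% fell. Members higher numbered 4 without the filter (17.9% of all genes rose), 13 with array weights (30.8%), 3 at adjusted p under 0.01 (18.4%) and 1 when limma's treat asked for a change beyond 0.25 on the log2 scale (15.7%). That last setting left 9 members lower, and 2710 of all genes (18.3%) in place of 4212. Leaving out single arrays gave 4 to 6 members higher, 14 to 18 lower and a median log2 fold change of the members from -0.14 to -0.053, beside -0.077 with all arrays. Over all genes the same fits gave 2963 to 3373 higher in place of 3458, and 3591 to 4280 lower in place of 4212. Averaging the probe sets of each gene gave 7 members higher and 13 lower, where 23.4% of all genes rose and 28.6% fell. That setting gave a median of -0.16, took the call from ASPM, AURKA, BUB1, CDC25C and TOP2A, and turned CDC27 from -0.38 to 0.19, where the cause was not tested. NEK2, PBK, UBE2C, UBE2S, BIRC5, CENPF, HMMR and PRC1 kept their call and direction in all 21 tested alternatives. None of the 25 called members changed direction in any of them. With 3 arrays per line, small changes such as those of CDCA8, SPC25, DLGAP5 and RACGAP1 lie near what the arrays can resolve, and no detection calls were used to bound dim probe sets.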
